A study of Mus musculus with 6 samples.

Results

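Of 42632 chromatin accessibility peaks measured in mouse long-term haematopoietic stem cells, 1614 (3.79%) had a midpoint within 1 kb of an end of at least 2 different protein-coding genes, and they are called shared gene-end peaks here. A gene end was either outermost coordinate, start or end, of a RefSeq gene of the mm10 build. The measurement was ATAC-seq, in which a transposase cuts accessible DNA, and the values were raw read counts in peaks of 700 bp. Long-term haematopoietic stem cells (LT-HSCs) are the rare bone marrow cells that sustain all blood lineages, and here they were purified as Lin-, Sca1+, cKit+, CD34-, Flt3- cells from C57BL/6 mice 10 to 16 weeks old. The 3 unconfined libraries came from cells kept for 16 h in culture. The 3 confined libraries came from cells kept for 13 h in culture, attached to fibronectin-coated glass for 0.5 h, held for 2 h under a coverslip whose pillars left a height of 5 µm, and then detached with a dissociation reagent. Attachment, confinement and detachment therefore came together and cannot be told apart. The submitters describe the 3 samples of a condition as biological replicates without saying whether each came from separate animals, so p-values measure the spread between these samples.

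Neighbouring genes can share one stretch of open DNA in several ways. In a head-to-head pair the genes lie on opposite strands with their starts adjacent, so a single nucleosome-free region can serve as a bidirectional promoter. Such promoters are usually rich in CpG dinucleotides, often lack a TATA box, and are common among housekeeping genes for DNA repair, protein folding, mitochondria and RNA processing. In a tail-to-tail pair the ends of the transcripts converge. In a same-direction pair both genes lie on the same strand, whichever of their ends are near, so the class includes nested genes such as Poln/Haus3.

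The 1614 shared peaks touched 3022 genes in 1575 distinct gene combinations, and 78 of the peaks shared their combination with another peak. All but 27 lay at 2 genes, and those 27 lay at 3. Strand was known for both genes of 1202 peaks. Of these, 838 (69.7%) were head to head, 304 same direction, 37 tail to tail and 23 had a start beside an end on opposite strands, while 412 had a gene of unknown strand. In 300 of the head-to-head peaks the annotated genes overlapped, and in 538 they were apart. The ends of the gene pair lay a median of 190 bp from each other, and in 1405 shared peaks (87.1%) the distance was no more than the 700 bp width of a peak. It was shortest in head-to-head peaks, with a median of 135 bp, and 388.5 bp in same-direction peaks. A predicted gene took part in 159 of the shared peaks. The comparison class was the 9659 peaks within 1 kb of the end of exactly 1 gene, called single-end peaks, and another 31359 peaks lay farther from any gene end.

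The letters of 6 shared promoters are shown because the results below name their peaks, which moved in different ways. Each window runs from 250 bases before to 50 bases after the start of the gene it is named for, 5′ to 3′ on that gene's strand, from RefSeq GRCm38.p6. Capitals mark matches, on either strand, to the motifs listed in the next paragraph. The first 4 belong to peaks that were lower in confined cells, Sars2/Mrps12 to a peak whose change did not pass the test, and Deaf1/Eps8l2 to a peak that was higher.
Tsacc/Cct3, Tsacc window, chr3:88296950-88297249, minus strand: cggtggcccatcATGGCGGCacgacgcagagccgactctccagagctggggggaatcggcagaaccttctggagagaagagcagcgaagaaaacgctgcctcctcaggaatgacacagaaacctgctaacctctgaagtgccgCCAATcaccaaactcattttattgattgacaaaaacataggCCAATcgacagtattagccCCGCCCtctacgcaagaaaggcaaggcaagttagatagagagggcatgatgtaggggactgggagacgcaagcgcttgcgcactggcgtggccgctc
Hnrnpa1/Cbx5, Cbx5 window, chr15:103239803-103240102, minus strand: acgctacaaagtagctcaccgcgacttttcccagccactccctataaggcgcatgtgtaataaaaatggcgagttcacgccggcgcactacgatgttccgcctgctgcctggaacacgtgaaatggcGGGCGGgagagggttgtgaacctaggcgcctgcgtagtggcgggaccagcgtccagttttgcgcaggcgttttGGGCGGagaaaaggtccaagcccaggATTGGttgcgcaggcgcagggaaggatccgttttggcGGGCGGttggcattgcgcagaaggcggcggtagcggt
S100pbp/Yars, S100pbp window, chr4:129189427-129189726, minus strand: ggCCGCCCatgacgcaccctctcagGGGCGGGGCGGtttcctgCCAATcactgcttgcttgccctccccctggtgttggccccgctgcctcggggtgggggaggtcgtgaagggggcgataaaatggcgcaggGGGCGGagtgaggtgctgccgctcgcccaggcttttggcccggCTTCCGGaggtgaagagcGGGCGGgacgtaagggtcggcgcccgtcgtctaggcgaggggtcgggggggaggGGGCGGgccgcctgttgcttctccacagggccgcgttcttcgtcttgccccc
Ppat/Paics, Ppat window, chr5:76951529-76951828, minus strand: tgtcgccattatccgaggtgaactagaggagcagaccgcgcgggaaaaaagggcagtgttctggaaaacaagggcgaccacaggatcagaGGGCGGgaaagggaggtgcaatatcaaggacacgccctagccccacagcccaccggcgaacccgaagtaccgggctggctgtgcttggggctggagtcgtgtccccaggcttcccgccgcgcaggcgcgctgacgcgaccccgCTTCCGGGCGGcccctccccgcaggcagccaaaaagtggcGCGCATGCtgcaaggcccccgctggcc
Sars2/Mrps12, Sars2 window, chr7:28741718-28742017, plus strand: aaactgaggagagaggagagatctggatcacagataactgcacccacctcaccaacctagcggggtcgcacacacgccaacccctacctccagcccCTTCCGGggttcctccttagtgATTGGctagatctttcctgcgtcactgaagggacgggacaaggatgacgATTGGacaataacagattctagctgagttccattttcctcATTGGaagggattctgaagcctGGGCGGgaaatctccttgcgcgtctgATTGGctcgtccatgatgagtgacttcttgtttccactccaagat
Deaf1/Eps8l2, Deaf1 window, chr7:141338734-141339033, minus strand: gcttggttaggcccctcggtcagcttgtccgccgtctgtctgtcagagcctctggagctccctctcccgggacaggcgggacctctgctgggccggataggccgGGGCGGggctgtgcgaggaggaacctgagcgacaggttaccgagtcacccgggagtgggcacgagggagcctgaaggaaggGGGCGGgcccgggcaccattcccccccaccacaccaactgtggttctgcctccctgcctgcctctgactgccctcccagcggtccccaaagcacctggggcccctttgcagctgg
The start of the gene itself is at position 251 of each window, counted from 1 at its 5′ end. The partner's promoter start, read on the opposite strand, falls inside 3 of the windows, at position 115 for Cct3, 104 for Mrps12 and 32 for Eps8l2. The Tsacc window, for example, holds 17 CpG dinucleotides, a pair of CCAAT boxes between the starts and an ATGGCGGC element within the 5′ part of Cct3. The Deaf1 window holds 16 CpG dinucleotides and only GC boxes among the motifs searched.

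Head-to-head peaks were CpG-rich, and the letters CCGGAAG were more frequent in their windows than in those of single-end peaks at a gene start. A window was matched to 1333 shared peaks, 834 of them head to head, and to 6731 single-end peaks at a start. The median window at a head-to-head peak held 25 CpG dinucleotides, against 21 at single-end starts and 7 over all 32851 RefSeq promoter windows of the same length. Its median G+C content was 63.3%, against 61.7% and 52.7%. The GC box GGGCGG, the letters bound by Sp1-family factors, stood in 70.3% of head-to-head windows, 68.6% of single-end start windows and 35.7% of all windows. The ETS-family core CCGGAAG stood in 28.5%, 16.9% and 8.86% of them. The longer form CCGGAAGT, which contains that core, stood in 13.5%, 7.44% and 3.89%. ATGGCGGC, as bound by YY1, was found in 8.51%, 4.84% and 2.24%, and CTCGCGAG in 3.96%, 1.81% and 0.919%. The frequency of CCAAT, the NF-Y box, was close to level across the 3 classes, at 39.6%, 39.4% and 37.4%. The TATA box TATAAA was less frequent at head-to-head peaks, at 3.60% against 6.64% at single-end starts and 13.6% of all windows. GCGCATGC, an NRF1 element, was in 6.12%, 5.78% and 2.71%, the CREB site TGACGTCA in 4.32%, 3.39% and 1.79%, and ACTACAATT in 0.959%, 0.847% and 0.393%. Every motif was searched on both strands, and a match is only the presence of these letters, without evidence of binding.

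The libraries differed in depth and in how much of the peak pattern they held. Total counts were 304898 to 1229478 in the unconfined libraries and 128257 to 340922 in the confined ones. The median shared peak held 11, 43 and 38 counts in unconfined libraries 1 to 3 and 10, 5 and 3 counts in confined libraries 1 to 3. A count of 0 allows up to 13.6 CPM (counts per peak after scaling to equal library totals) of all peak counts in confined library 2 and 23.4 CPM in confined library 3, and 35 and 157 shared peaks were at 0 there. Confined libraries 2 and 3 stand apart in a further way. Across the shared peaks, log2(CPM + 1) correlated with the mean of the other unconfined libraries at Pearson r = 0.848 to 0.918 in unconfined libraries, but with the unconfined mean at 0.682, 0.187 and 0.0429 in confined libraries 1, 2 and 3. These correlations are across 1614 peaks, which share each library's depth and are not independent replicates. The 323 shared peaks highest in the unconfined mean held 5.07 to 7.54 times the level of the 323 lowest in unconfined libraries, and 2.91, 1.36 and 1.07 times in confined libraries 1, 2 and 3. Confined libraries 2 and 3 thus held little of the difference between shared peaks. The main values below are therefore given by library. Of 12 stem cell marker genes, 7 had a gene-end peak, and Slamf1, Mecom, Gata2, Ly6a and Tek had none. The summed level of the stem cell markers was 15.9 to 20.8 CPM per listed gene in unconfined and 18.8 to 21.1 CPM in confined libraries. Committed myeloid markers (2 of 7 with a peak) were at 2.47 to 3.60 CPM in unconfined libraries and at 2.93, 5.81 and 14.5 CPM in confined libraries 1 to 3. Erythroid markers (1 of 4) were at 1.64 to 3.05 CPM in unconfined and 2.20 to 15.6 CPM in confined libraries, the highest again library 3, and endothelial and stromal markers (1 of 5) at 7.22 to 8.94 and 4.68 to 13.5 CPM. B cell markers (2 of 4) were at 9.84 to 11.7 and 13.6 to 22.7 CPM, megakaryocyte markers (3 of 3) at 46.6 to 58.6 and 30.1 to 42.0 CPM, and the 6 T and NK cell genes had no gene-end peak. The part of these differences in the results was not tested.

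Shared gene-end peaks were among the most accessible sites of unconfined stem cells, and they held a smaller part of the reads in confined cells. They took 7.52%, 6.96% and 7.99% of all peak counts in unconfined libraries 1 to 3, for 3.79% of the peaks. The exact Clopper-Pearson 95% interval was 7.42% to 7.61% in unconfined library 1 and 3.47% to 3.67% in confined library 3. In confined libraries 1 to 3 they took 5.19%, 3.55% and 3.57%. Every confined library lay below every unconfined one, and the share of confined libraries 2 and 3 was near the share of peaks. The mean fell from 7.49% ± 0.516 to 4.10% ± 0.938 (SD, n = 3 each), a difference of -3.38 percentage points with a two-sided exact permutation p of 0.1, the smallest that 3 against 3 allows. Single-end peaks also lost, from 33.5% to 22.2% of all counts. Of the counts at gene ends alone, shared peaks took 18.3%, 18.0% and 18.6% without confinement, and 16.7%, 14.9% and 14.9% with it, for 14.3% of the gene-end peaks. That difference was -2.78 percentage points (exact permutation p = 0.1), so shared peaks lost more than single-end peaks by this measure in 3 of 3 batches. With library 1 as the whole confined group it was -1.54 percentage points. In bulk libraries, fewer cells with an open site and less access per cell cannot be told apart. The intervals cover counting error only.

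The arrangement of the genes went with the level. Head-to-head peaks were the highest, with a mean of 52.2 CPM per peak in unconfined libraries, against 39.7 for same-direction, 19.9 for tail-to-tail and 34.6 for single-end peaks. Set against single-end peaks of the same library, head-to-head peaks held 1.51, 1.47 and 1.54 times the counts per peak in unconfined libraries 1 to 3 and 1.28, 1.06 and 1.04 times in confined libraries 1 to 3. The groups did not overlap (1.51 ± 0.0358 against 1.13 ± 0.131, SD, n = 3, exact permutation p = 0.1). Against single-end peaks at a gene start only, the ratio went from 1.40 ± 0.0228 to 1.12 ± 0.0949 (exact permutation p = 0.1). The 538 head-to-head peaks whose genes were apart averaged 55.7 CPM and the 300 with overlapping genes 45.9 CPM in unconfined cells. Restricting the class to the 729 peaks with the promoter starts of both genes within 1 kb gave 1.53 ± 0.0374 and 1.13 ± 0.137. Same-direction peaks stood nearer to single-end peaks, at 1.15, 1.13 and 1.16 times in unconfined and 1.12, 1.07 and 1.07 times in confined libraries. Against single-end peaks at a gene start only they did not fall, with 1.07, 1.06 and 1.07 times in unconfined and 1.08, 1.07 and 1.09 times in confined libraries. Tail-to-tail peaks, where the near ends of both genes are their transcript ends, lay below single-end peaks without confinement, at 0.557, 0.663 and 0.514 times. They reached 0.849, 1.09 and 1.11 times with it. The 645 single-end peaks at a transcript end moved likewise. They were at 0.563, 0.616 and 0.515 times in unconfined and 0.809, 1.17 and 1.16 times in confined libraries 1 to 3. Relative to peaks over 1 kb from any gene end, the 37 tail-to-tail peaks were at 1.06 ± 0.0451 and 0.982 ± 0.0423 times, which is to say at about the level of distal sites in both conditions.

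**Figure D1:**
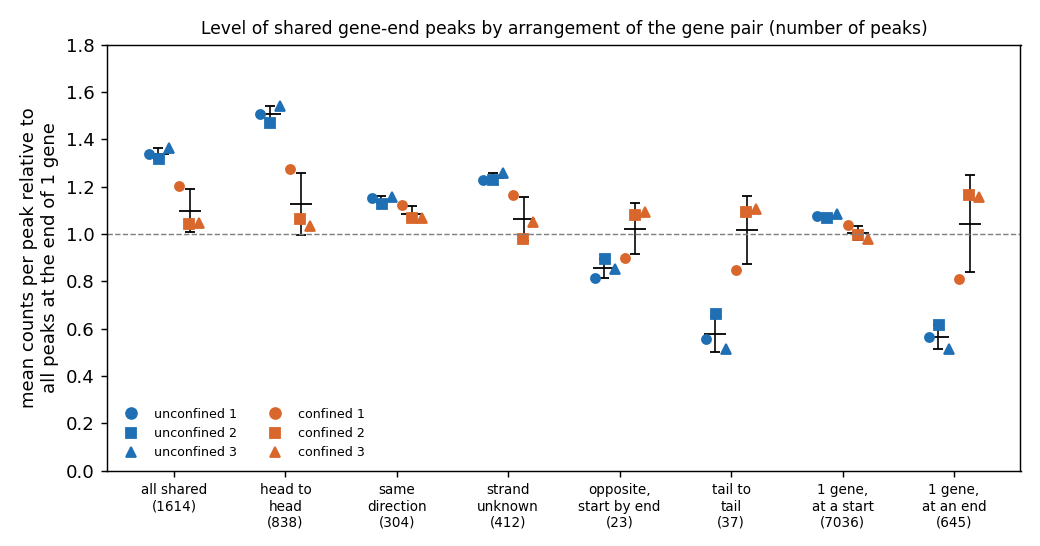
Mean counts per peak of each arrangement relative to all single-end peaks of the same library (y axis, no unit) by arrangement (x axis, number of peaks in brackets), with 1 point per library and bars for mean ± SD over 3 libraries. Head-to-head peaks sit at 1.47 to 1.54 in unconfined libraries and at 1.04 to 1.28 in confined ones, while tail-to-tail peaks and single-end peaks at a gene end sit below 1 in all unconfined libraries.

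The spacing of the starts in head-to-head pairs went with accessibility as well. In unconfined cells the mean level was 44.5 CPM for the 201 peaks with starts 0 to 50 bp from each other, 49.3 CPM at 51 to 100 bp, 61.2 CPM at 101 to 200 bp, 62.6 CPM at 201 to 400 bp and 44.6 CPM beyond 400 bp. The level was highest where the starts were 101 to 400 bp from each other. Those 325 peaks held 1.38, 1.36 and 1.43 times the counts of the 0 to 50 bp class in unconfined libraries 1 to 3, and 1.20, 1.04 and 1.02 times in confined libraries 1 to 3. The mean ratio was 1.39 ± 0.0335 and 1.09 ± 0.0961 (SD, n = 3), and against the class beyond 400 bp it was 1.39 ± 0.0205 and 1.17 ± 0.121. The range of 101 to 400 bp was chosen after its level in unconfined cells was seen, so these ratios are a description with no test. Confined library 1 kept a visible rise at 101 to 400 bp, and in confined libraries 2 and 3 the classes lay between 20.1 and 24.1 CPM.

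**Figure D2:**
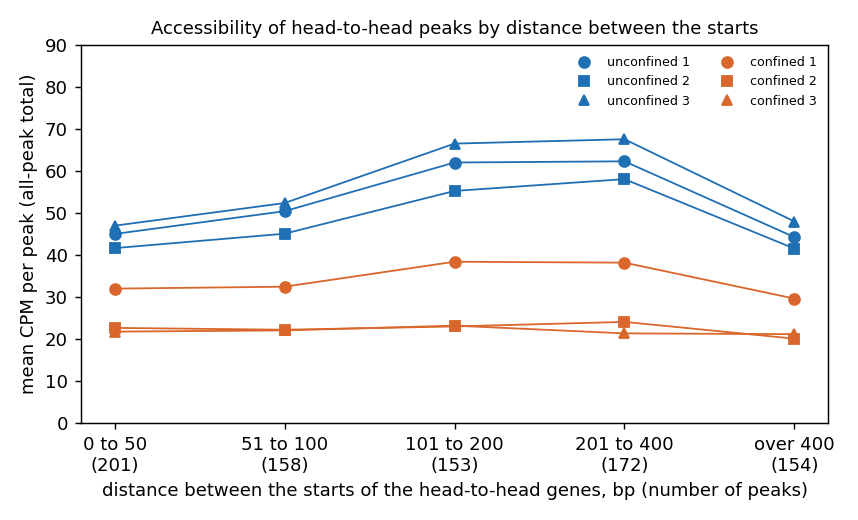
Mean CPM per peak, scaled to all peak counts (y axis), of head-to-head peaks by the distance between the gene starts in bp (x axis, number of peaks in brackets), with 1 line per library. The 3 unconfined libraries peak at 101 to 400 bp, confined library 1 reaches 38.4 CPM there, and confined libraries 2 and 3 stay between 20.1 and 24.1 CPM.

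Single shared peaks were tested with edgeR's quasi-likelihood test over all 9084 peaks that passed a filter on low counts (about 31.0 CPM in at least 3 libraries), with Benjamini-Hochberg adjustment and a threshold of 0.05. The filter kept 927 of the 1614 shared peaks, so every count below leaves out the remaining, weaker ones. Of the tested shared peaks, 35 (3.78%) were lower and 8 (0.863%) higher in confined cells, beside 2.42% lower and 5.79% higher among all tested peaks. Single-end peaks gave nearly the same shares, 3.77% lower and 1.13% higher of 3709 tested. At an unadjusted p under 0.05, 178 shared peaks were lower and 33 higher. By arrangement, 24 of 553 tested head-to-head peaks were lower and 2 higher, 4 of 151 same-direction peaks lower and 1 higher, and of the 6 tail-to-tail peaks tested 2 were higher and 0 lower (edgeR, also 0 at an unadjusted p under 0.05 and 0 by DESeq2 and limma-voom). Of the 17 tested peaks at 3 genes, 0 passed in either direction by edgeR, DESeq2 or limma-voom, and 1 was lower at an unadjusted p under 0.05. All confined libraries lay below all unconfined ones in 252 shared peaks (27.2%, beside 18.3% of all tested peaks) and above them in 54 (5.83%, beside 14.1%). For single-end peaks these shares were 25.7% and 6.17%.

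The median log2 fold change of the tested shared peaks was -0.29, with quartiles at -0.66 and 0.09 and 70.0% of values below 0, beside a median of -0.02 over all tested peaks and -0.25 for single-end peaks. It was -0.34 for head-to-head, -0.13 for same-direction and 0.54 for tail-to-tail peaks. The tail-to-tail value rests on 6 peaks, 2 of them called higher, and was -0.15 with total counts and -0.08 with library 1 as the whole confined group. Scaling by total counts alone moves the median of all tested peaks from -0.02 to -0.68 and that of shared peaks to -0.94, so these values are read relative to the median of all tested peaks. On the mean log2 CPM of tested peaks, shared peaks exceeded single-end peaks by 0.11 ± 0.02 in unconfined and 0.07 ± 0.04 in confined libraries (SD, n = 3), a difference of -0.04 that was not larger than the spread between libraries (two-sided exact permutation p = 0.3). Over all peaks, with no filter on low counts, the difference in log2(CPM + 1) was -0.30, and after thinning every library to the smallest total it was -0.38 (exact permutation p = 0.1 for each). Shared peaks lay nearer to a gene end than single-end peaks, at a median of 90 against 151 bp. Over tested peaks the difference was -0.012 against single-end peaks at a start only (exact permutation p = 0.7). With the nearest end within 200 bp it was -0.014 (exact permutation p = 0.8). For head-to-head peaks the excess went from 0.17 ± 0.02 to 0.08 ± 0.06, a difference of -0.09, and over all peaks the difference was -0.49. With the same number of peaks chosen by mean level it was -0.18. For same-direction peaks the excess went from 0.00 ± 0.02 to 0.10 ± 0.03, but over all peaks the difference turned to -0.074. Both arrangements had an exact permutation p of 0.1 over tested peaks, or 0.167 adjusted over the 5 arrangements. That adjustment counted in the tail-to-tail class, whose own test is not given, so the adjusted value rests partly on it. The 6 tested tail-to-tail peaks went from -0.54 ± 0.22 to 0.46 ± 0.35, and 2 of them are among the peaks called higher, most of which entered the test through the confined libraries with at most 1 unconfined one, so no test is given. Over all 37 tail-to-tail peaks the difference was 0.63. For the 6 tested peaks it was 1.00 against all single-end peaks and 0.48 against single-end peaks at a transcript end. Same-direction and head-to-head peaks differed from each other in the same way, with a difference of 0.19 (exact permutation p = 0.1). Against single-end peaks at a start alone, the head-to-head difference was -0.06 (exact permutation p = 0.2).

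**Figure D3:**
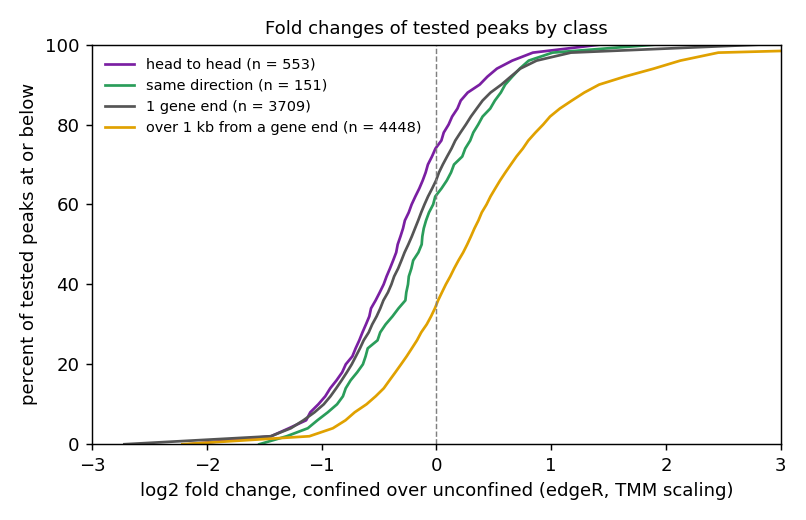
Cumulative percent of tested peaks (y axis) at or below each log2 fold change, confined over unconfined (x axis), for head-to-head, same-direction, single-end and distal peaks. Head-to-head peaks lie slightly left of single-end peaks (medians -0.34 and -0.25), same-direction peaks to their right (-0.13), and peaks over 1 kb from a gene end lie farthest right (0.27).

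The 35 shared peaks that fell included those at the chaperone genes Cct3 and Hsp90b1, the deubiquitinase gene Usp5 and the splicing regulator gene Hnrnpa1. Their log2 fold changes ran from -2.15 to -1.12 with a median of -1.40, and in all 35 every confined library lay below every unconfined one. All 35 passed the filter through the 3 unconfined libraries and were picked for being lower. That separation was therefore largely set by the selection and is a description. The median count of the 35 in the confined libraries was 4. The 12 with the smallest p had standard errors of 0.38 to 0.57. Levels of these and of other single peaks named below are in CPM scaled over tested peaks (TMM). The peak between Cdca3, a regulator of mitotic entry, and Usp5, a deubiquitinase, had 249, 279 and 319 CPM in unconfined and 91.7, 92.8 and 62.9 CPM in confined libraries 1 to 3. It lay at chr6:124829196-124829895, 15 bp from Cdca3 and 61 bp from Usp5. The groups were far apart, from 282 ± 35.0 to 82.5 ± 17.0 CPM (log2 fold change -1.71, SE 0.40, with an adjusted p of 0.00520 by edgeR). For Zfc3h1, which directs nuclear RNA to the exosome, and Thap2, the levels were 370, 230 and 274 CPM against 117, 18.6 and 62.9 CPM (-1.76, edgeR adjusted p = 0.00689). Tsacc/Cct3, whose window is printed above, lies 26 bp from Tsacc, a co-chaperone gene, and 162 bp from Cct3, a subunit of the chaperonin that folds actin and tubulin. It had 188, 228 and 190 CPM against 50.02, 55.7 and 126 CPM, with confined library 3 the nearest to the unconfined range (-1.68, edgeR adjusted p = 0.00727). Hnrnpa1/Cbx5 joins an RNA-binding splicing regulator to the heterochromatin protein HP1 alpha, within chr15:103239643-103240342. Its 255, 222 and 243 CPM in unconfined libraries stood far above 83.4, 92.8 and 62.9 CPM in confined ones (-1.52, edgeR adjusted p = 0.00970).

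In further pairs the confined values rested on 0 to 27 counts per library. The peak of Ttc41 and Hsp90b1, the HSP90 of the endoplasmic reticulum, had 282, 218 and 288 CPM without confinement, against 133, 18.6 and 0 CPM with it (-1.68, edgeR adjusted p = 0.0109). S100pbp/Yars, where Yars encodes the tyrosyl-tRNA synthetase, showed the largest fold change among the 35, from 168, 104 and 93.9 CPM to 25.01, 37.1 and 0 CPM (-2.15 ± 0.57 SE, edgeR adjusted p = 0.0131). Those confined values rest on 3, 2 and 0 counts. Zbtb22/Daxx, a same-direction pair with the histone H3.3 chaperone Daxx, went from 141, 163 and 188 CPM to 83.4, 37.1 and 0 CPM (-1.54). Cdca2/Kctd9, with the mitotic phosphatase partner Cdca2, was the highest of the 12 in unconfined cells, with 551, 420 and 513 CPM against 225, 37.1 and 62.9 CPM (-1.78). Cep95/Ddx5, with the RNA helicase gene Ddx5, went from 186 ± 31.5 to 50.6 ± 28.5 CPM (-1.49). Klf3/Gm38457, at the start of the zinc finger repressor gene Klf3, went from 170 ± 34.1 to 50.01 ± 12.9 CPM (-1.74). Poln/Haus3, where the augmin subunit gene Haus3 lies within Poln, went from 250 ± 23.3 to 81.8 ± 23.7 CPM (-1.46), and Usp20/BC005624, with another deubiquitinase, from 307 ± 54.4 to 127 ± 53.4 CPM (-1.45). When the confined group was library 1 alone, all 35 kept a negative fold change, which for the 12 ran from -2.77 to -1.61, though edgeR then called 0 shared peaks lower, with 379 lower at an unadjusted p under 0.05. With the batch number as a block, 14 shared peaks were called lower, all of them among the 35, and Poln/Haus3 (edgeR adjusted p = 0.0517) and Usp20/BC005624 (0.113) no longer passed. Without unconfined libraries 1, 2 and 3, 115, 39 and 14 shared peaks were called lower. Without confined libraries 1, 2 and 3, 144, 12 and 100 were. Leaving out any library except unconfined library 2 thus moved the number by over 1.5 times. The filter on low counts was rerun in each case and kept 10622 to 15977 peaks, 911 to 1116 of them shared. The library left out and the set of tested peaks therefore changed together.

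**Figure D4:**
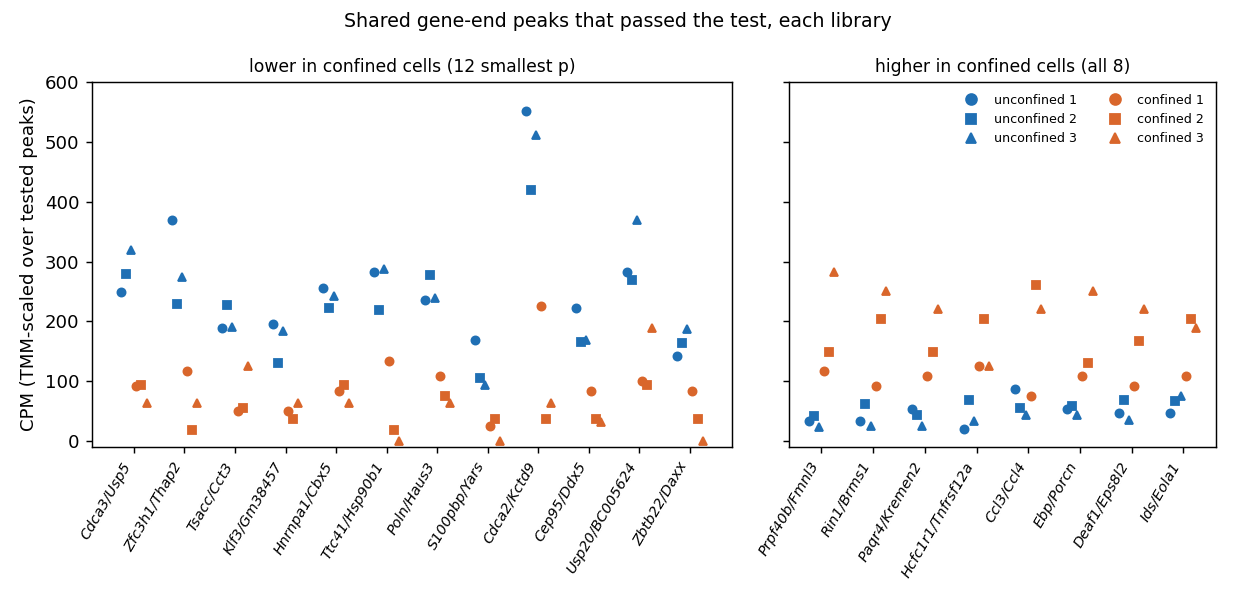
CPM scaled over tested peaks (y axis) in each library for the 12 shared peaks with the smallest p that were lower in confined cells (left) and all 8 that were higher (right). Confined points lie below all unconfined points in each of the 12, and above them in 7 of the 8, with Ccl3/Ccl4 overlapping.

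The 8 shared peaks that rose averaged 32.6 to 63.0 CPM in unconfined and 152 to 185 CPM in confined cells, scaled over tested peaks. On the scale of all peak counts, which the filter used, the 8 were weak in unconfined cells, at 15.2 to 29.7 CPM. In confined cells they averaged 41.6 to 49.1 CPM on that scale. Of these, 7 passed the filter only through the 3 confined libraries with at most 1 unconfined library, so they had to be higher to be tested. Prpf40b/Fmnl3, a tail-to-tail pair of a splicing factor gene and a formin gene that regulates actin, had 33.6, 41.8 and 22.5 CPM in unconfined and 117, 149 and 283 CPM in confined libraries (2.29 ± 0.51 SE, edgeR adjusted p = 0.00360). Its confined values rest on 14, 8 and 9 counts. Hcfc1r1/Tnfrsf12a, also tail to tail and next to the gene of the TWEAK receptor, had 20.2, 68.4 and 32.7 CPM against 125, 204 and 126 CPM (1.70, edgeR adjusted p = 0.0170). Deaf1/Eps8l2, the head-to-head pair printed above, had 47.1, 68.4 and 34.7 CPM against 91.7, 167 and 220 CPM (1.42, edgeR adjusted p = 0.0449). Rin1/Brms1, with the gene of a RAS effector, went from 39.6 ± 18.9 to 182 ± 82.1 CPM (1.92), and Paqr4/Kremen2, with a Wnt co-receptor antagonist, from 40.7 ± 14.9 to 159 ± 56.6 CPM (1.90). Ebp/Porcn, with a sterol isomerase gene and the acyltransferase gene of Wnt ligands, went from 51.8 ± 8.17 to 163 ± 77.2 CPM (1.45), and Ids/Eola1, with a lysosomal sulfatase gene, from 63.0 ± 14.6 to 167 ± 51.4 CPM (1.13). Ccl3/Ccl4, beside 2 chemokine genes, had 87.4, 55.1 and 42.9 CPM in unconfined and 75.03, 260 and 220 CPM in confined libraries (1.46, edgeR adjusted p = 0.0289). Its confined library 1 lay within the unconfined range, and with that library as the only confined one the fold change turned to -0.16. In the other 7 it stayed above 0 there. All 8 were also called with the batch block. Without unconfined library 3 or confined library 2, 1 shared peak was called higher in each case, and without unconfined library 1, confined library 1 and confined library 3, 4, 17 and 5 were.

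The 8 shared peaks with the highest level in unconfined cells were chosen by that level, which favours a lower confined value, so they are a description. They averaged 476 to 726 CPM in unconfined and 108 to 279 CPM in confined libraries, with log2 fold changes of -1.78 to -1.02, and 3 of them passed the test. With loess offsets 3 turned positive, Khsrp/Slc25a41 (0.24), Ap2a1/Tsks (0.11) and Aldh6a1/Lin52 (0.029). The highest was Khsrp/Slc25a41, with the gene of an RNA-binding protein that promotes mRNA decay, at 780, 682 and 717 CPM against 433, 279 and 126 CPM (-1.18 ± 0.56 SE, edgeR adjusted p = 0.178). Besides Cdca2/Kctd9, Izumo4/Mob3a passed, going from 501 ± 46.3 to 124 ± 139 CPM (-1.56, edgeR adjusted p = 0.0377). Agpat1/Rnf5, with a lysophosphatidic acid acyltransferase and a ubiquitin ligase gene, passed with 464, 416 and 553 CPM against 225, 167 and 94.3 CPM (-1.38, edgeR adjusted p = 0.0487). With library 1 as the whole confined group these 2 were at -1.47 and -1.73, and with the batch block they had edgeR adjusted p of 0.0624 and 0.152. Of the peaks at 3 genes, the strongest, Nup62/Il4i1b/Atf5, with a nuclear pore gene and a stress-response transcription factor gene, had 282, 237 and 249 CPM against 133, 149 and 0 CPM (-1.12, edgeR adjusted p = 0.0575). Rfxank/Borcs8/Gm45929 had 175, 177 and 159 CPM against 133, 223 and 189 CPM (-0.02), so its groups overlapped.

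Pairs known to diverge from a common promoter were mostly lower in confined cells without passing the test. Of 19 listed pairs, 14 had a shared peak, 12 of these were tested, 10 had a fold change below 0 and 1 passed, with a median of -0.46. Of all tested shared peaks, 70.0% were below 0 and 3.78% were called lower. Ppat/Paics, whose enzymes act in purine synthesis, had 148, 165 and 172 CPM in unconfined and 50.02, 130 and 31.4 CPM in confined libraries (-1.26 ± 0.40 SE, edgeR adjusted p = 0.0417). With library 1 as the whole confined group it was at -2.32, and with the batch block its edgeR adjusted p was 0.127. Nbr1/Brca1, beside the gene of the homologous recombination protein Brca1, had 289, 273 and 302 CPM against 125, 223 and 94.3 CPM (-0.97, edgeR adjusted p = 0.0906). Its groups were separate. Npat/Atm, with the DNA damage kinase gene Atm, had 168, 198 and 214 CPM against 158, 111 and 62.9 CPM (-0.61, edgeR adjusted p = 0.257). Hspe1/Hspd1, the mitochondrial chaperonin pair, had 141, 101 and 141 CPM against 117, 74.3 and 31.4 CPM, and its groups overlapped (-0.43 ± 0.38 SE, edgeR adjusted p = 0.508). Sars2/Mrps12, the mitochondrial seryl-tRNA synthetase and ribosomal protein pair printed above, went from 229, 194 and 202 CPM to 192, 92.8 and 94.3 CPM (-0.46, edgeR adjusted p = 0.409). Pcna/Cds2, beside the gene of the replication clamp, stood at 141 ± 24.8 and 153 ± 40.3 CPM (0.19 ± 0.32 SE), and Tap1/Psmb9, the peptide transporter and immunoproteasome pair, at 121 ± 6.25 and 98.5 ± 52.2 CPM (0.01 ± 0.35 SE), a fold change that turned negative under most other settings. Vps52/Rps18 was at 142 ± 27.6 and 137 ± 17.3 CPM (-0.06) and Tmem258/Fen1 at 88.2 ± 1.42 and 86.5 ± 37.7 CPM (-0.09). Also tested were Timm13/Lmnb2, same direction by this annotation (-0.68), and Prkdc/Mcm4 (-0.47), and Col4a2/Col4a1 and Surf1/Surf2 were too low to test.

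Among functional groups common at shared promoters, no list had a peak that rose by edgeR, and the median of each lay below that of all tested peaks (-0.02). A peak belonged to a list if any of its genes did. Of 225 shared peaks in any of the 8 lists, 146 were tested, 6 (4.11%) fell and 0 rose by edgeR, near the 3.78% and 0.863% of all tested shared peaks, with a median of -0.34, against -0.29 for all tested shared peaks. At an unadjusted p under 0.05, 25 were lower and 2 higher, and 0 rose by DESeq2 and 1, Psmb8/Tap1, by limma-voom. Of the 12 chaperone peaks, 7 were tested and 2 fell, Tsacc/Cct3 and Ttc41/Hsp90b1, with a median of -0.80. Another chaperonin peak, Cct7/Pradc1, had 182, 243 and 214 CPM against 108, 37.1 and 189 CPM and did not pass (-1.10, edgeR adjusted p = 0.0586). Of 23 ubiquitin and proteasome peaks, 15 were tested and 2 fell, Cdca3/Usp5 and Usp20/BC005624 (median -0.26). In this list Psmb8/Tap1, at an immunoproteasome gene, went the other way without passing by edgeR, from 53.8, 53.2 and 79.6 CPM to 133, 92.8 and 189 CPM (1.03, edgeR adjusted p = 0.0929). Of 13 aminoacyl-tRNA synthetase peaks, 8 were tested and 1 fell, S100pbp/Yars (median -0.43). Of 21 RNA processing peaks, 16 were tested and 1 fell, Hnrnpa1/Cbx5 (median -0.43), while Gucd1/Snrpd3, with the gene of a core snRNP protein, had 148, 150 and 155 CPM against 100, 55.7 and 62.9 CPM (-0.88, edgeR adjusted p = 0.126). In 4 lists 0 peaks passed by edgeR or DESeq2, and limma-voom called 1 lower, Nbr1/Brca1 among the DNA repair and replication peaks. These were DNA repair and replication (15 of 18 tested, median -0.47, 2 lower at an unadjusted p under 0.05), ribosomal proteins (37 of 60, median -0.32, 3 lower and 1 higher unadjusted), the mitochondrial respiratory chain (30 of 45, median -0.38, 5 lower unadjusted), and chromatin and transcription (24 of 41, median -0.19, 2 lower unadjusted). Near the threshold were Mrpl41/Pnpla7, a mitochondrial ribosomal protein gene, at 208 ± 17.2 and 82.1 ± 58.4 CPM (-1.14, edgeR adjusted p = 0.0524), and Lrrc41/Uqcrh, a complex III subunit gene, at 186 ± 20.3 and 72.2 ± 40.6 CPM (-1.07, edgeR adjusted p = 0.0654).

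The tested head-to-head peaks were also split by the motifs of their windows, as a description with no test. The 268 peaks with a CCAAT box had a median of 64.8 CPM in unconfined libraries and a median log2 fold change of -0.37, and the 283 without one had medians of 51.3 CPM and -0.31. The 163 with CCGGAAG had medians of 56.0 CPM and -0.29, against 56.8 CPM and -0.35 for the 388 without. The 386 with a GC box were at 57.5 CPM and -0.37 and the 165 without at 53.8 CPM and -0.24. Among rarer letters, the median fold change was -0.22 for the 76 peaks with CCGGAAGT (-0.35 without), -0.15 for the 19 with TGACGTCA (-0.34 without), -0.46 for the 18 with TATAAA (-0.33 without) and -0.51 for the 6 with ACTACAATT (-0.33 without). For GCGCATGC, ATGGCGGC and CTCGCGAG it was -0.34, -0.30 and -0.34, with -0.33, -0.34 and -0.34 without. At the limit of the selection, the 74 shared peaks whose next gene end lay 901 to 1000 bp from the midpoint averaged 32.3 CPM in unconfined libraries, and the 60 single-end peaks with a further gene end at 1001 to 1100 bp averaged 41.2 CPM. Of these 24 and 25 were tested, with median fold changes of 0.02 and -0.10.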

How the data were processed

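ATAC-seq counts of 3 unconfined and 3 confined LT-HSC libraries were used as the authors deposited them, as raw counts per 700 bp peak for all samples in 1 table. The mm10 build, featureCounts, R 4.2.0 and SAMtools 1.14 are named in the submitters' processing notes. Their roles, the aligner, the peak caller, duplicate removal and the samples behind peak calling stand as not given in the sources used here. Peaks called mainly from deeper libraries would miss sites open only in shallow ones. Peaks were assigned to protein-coding genes of RefSeq GRCm38.p6 by midpoint, within 1000 bp of an outermost gene coordinate. Strand came from RefSeq promoter windows, for 17492 of 21900 genes, and motif letters from the same 300-base windows. These are placed by the gene start, so they cover at most part of the 700 bp peak. Some, such as the Cdca3 window, lie outside it.

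The test used R 4.3.3 and edgeR 4.0.16, with filterByExpr, TMM factors over tested peaks, glmQLFit and glmQLFTest and group as the model. Class means used log2 CPM with a prior count of 2, and class differences a two-sided exact permutation test over libraries (SciPy 1.17.1). Alternatives used total-count, upper-quartile and loess scaling, other filters, DESeq2 1.42.0, limma 3.58.1 (voom), other distances, a batch block and each library left out. The labels give same-numbered samples a shared experimental batch, which is where the pairing comes from. Across peaks, the deviations of same-numbered samples had Pearson r of -0.0083, 0.016 and -0.067, against -0.13 to 0.14 for samples of different numbers. The shared peaks and all gene lists were chosen with earlier results of these data known. Named peaks were up to 12 in each direction past the threshold, smallest p first, the 8 highest in unconfined cells, the peaks at 3 genes past the threshold or else the 4 with the highest mean count, those at listed divergent pairs, and up to 4 with the smallest p per list. Of the peaks this rule names, 1 is not reported here.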

Additional observations from a re-analysis of the deposited data

How the results depend on the processing

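The loss of count share by shared peaks kept its direction under every setting run, with leave-one-out differences of -3.93 to -3.11 percentage points of all counts and -3.40 to -2.46 points of gene-end counts. Every confined library lay below every unconfined one in both shares, so leaving out a library could change the size but not the sign. With distances of 500 bp and 2 kb the difference was -2.85 and -4.23 percentage points of all counts. Calls of single peaks did not hold so well. Called member peaks, lower (35), numbered 336 with total-count scaling, 249 with no filter, 20 with loess offsets, 20 with DESeq2, 14 with the replicate block that follows from the batch pairing, and 12 to 144 with 1 library left out. They numbered 0 at a mean count of at least 20 (edgeR, 75 at an unadjusted p under 0.05) and 0 with confined library 1 only (379 unadjusted). Called member peaks, higher (8), numbered 4 with total-count scaling, 3 with loess offsets, 17 with limma-voom, 2 with no filter, 0 at a mean count of at least 20 (25 unadjusted), 0 with confined library 1 only (11 unadjusted), 3 within 500 bp, 17 within 2 kb, 9 with the replicate block, and 1 to 17 with 1 library left out. The cause of these moves was not tested, except that the stricter filter left 716 shared peaks to test. The default filter was also rerun whenever libraries were left out. It kept 911 to 1116 shared peaks with 1 library left out and 1579 with confined library 1 only, against 927 in the main test. Over total counts, no filter, a mean count of at least 20 and confined library 1 only, the median log2 fold change of shared peaks was -0.94, -0.84, -0.10 and -0.68, that of single-end peaks -0.91, -0.54, -0.10 and -0.49, that of head-to-head peaks -0.998, -1.01, -0.12 and -0.76, and that of tail-to-tail peaks -0.15, 0.11, 0.041 and -0.084. With 1 library left out these medians ran from -0.72 to -0.41, -0.61 to -0.32, -0.80 to -0.46 and 0.18 to 1.01. Those medians are over the peaks kept by the rerun filter, not over the peaks of the main test.

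Shared minus single-end log2 CPM (-0.04) was 0.0063 at a mean count of at least 20 and 0.040 among the peaks of lowest level, but -0.30 over all peaks and -0.38 over all peaks thinned to equal totals (exact permutation p = 0.1 for each of the last pair). It was -0.012 against single-end peaks at a start only and -0.014 with the nearest end within 200 bp. Over all peaks, head-to-head minus single-end (-0.09) was -0.49 and same-direction minus single-end (0.10) was -0.074. Pairs with genes apart were at -0.06 (exact permutation p = 0.2) and at -0.33 over all peaks. Pairs with overlapping genes were at 0.011 (exact permutation p = 0.8), and at -0.26 over all peaks, -0.028 with confined library 1 only and -0.029 to 0.031 with 1 library left out. The fold change turned positive with loess offsets for Khsrp/Slc25a41 (0.24), Ap2a1/Tsks (0.11), Aldh6a1/Lin52 (0.029), Rspry1/Psme3ip1/LOC115486880 (0.060), Rpgrip1/Hnrnpc (0.064) and Vps52/Rps18 (0.23, and 0.24 at a mean count of at least 20). With confined library 1 only, Ccl3/Ccl4 was at -0.16 and Mitd1/Mrpl30 at -0.27. Rfxank/Borcs8/Gm45929 was at 0.50 with loess offsets, 0.047 with DESeq2, 0.28 at a mean count of at least 20, 0.044 with the replicate block and -0.49 to 0.18 with 1 library left out. Tmem258/Fen1 was at 0.21 at a mean count of at least 20 and -0.64 to 0.12 with 1 library left out. Pcna/Cds2 was at -0.49 with total counts, -0.73 with no filter, -0.21 with confined library 1 only, and -0.36 to 0.20 with 1 library left out. Tap1/Psmb9 was at -0.67 with total counts, -0.063 with upper-quartile factors, -0.074 with DESeq2, -0.91 with no filter, -0.064 with peaks chosen by mean log2 CPM, -0.19 with the replicate block, -0.22 with confined library 1 only, and -0.88 to -0.024 with 1 library left out. Depth limits these values, since a median shared peak held 3 to 10 counts in confined libraries and 11 in unconfined library 1.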
